A study of Mus musculus with 3 samples.

Results

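Chondroitin sulfate proteoglycans are secreted or membrane-bound core proteins that carry chondroitin sulfate chains. The genes described here are 10 members of this system, found by gene symbol among the 22976 genes of the deposited counts table. They are the lecticans Bcan, Ncan and Vcan, the other core proteins Cspg4, Cspg5 and Bgn, the chain-building genes Chsy1 and Chpf, and the chain sulfotransferases Chst11 and Chst12. All 10 had a row of counts, and 9 of the 10 passed a filter on low counts and could be tested among 13705 genes. Cspg5 did not pass it.

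The values come from messenger RNA of NSC-34 cells, a mouse hybrid line in which neuroblastoma was fused with embryonic spinal cord cells enriched in motor neurons. Clone 1 and clone 2 are spontaneously PR20-resistant NSC-34 clones with a wild-type background, labelled with 10 µM PR20 for 3 weeks, and each was sequenced as 1 library. PR20 is a proline-arginine repeat peptide, like those translated from the expanded C9ORF72 repeat. The only reference is 1 library of NSC-34 cells labelled as wild type and without treatment, called untreated here. All cells were grown on gelatin in medium with serum. Clonal origin, resistance and exposure to the peptide go together in these libraries and cannot be told apart. The labels do not state whether clone 1 and clone 2 were grown as separate cultures. If they were not, p-values reflect technical variation between these libraries and no more.

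A chondroitin sulfate chain is built on a serine of the core protein. A short linker is made first, then alternating sugars are added to form the polymer, and sulfotransferases place sulfate groups that give the chain its negative charge. Lecticans bind hyaluronan at one end and tenascins at the other, and in the nervous system they form part of the extracellular matrix around neurons, including perineuronal nets. Chains on these proteins are known for limiting axon growth through receptors on the neuronal surface, and they are taken apart in lysosomes.

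The sequences before the gene starts are shown for the 3 lecticans, which had the largest differences of the 10 genes, and for Chsy1, which had the lowest p among the enzymes. They come from RefSeq on build GRCm38.p6, whose promoter table matched 9 of the 10 genes. Each is the 250 bases before the RefSeq start, in the direction of the gene. This start can differ from that of the Gencode annotation, which gives the gene positions below. The last bases of the Ncan window, with its TATA box, lie inside the Ncan gene as Gencode places it. The Bcan window is chr3:88000357-88000606 on the minus strand. The Ncan window is chr8:70120845-70121094 on the minus strand. The Vcan window is chr13:89742513-89742762 on the minus strand. The Chsy1 window is chr7:66109242-66109491 on the plus strand. Capitals mark a GC box (GGGCGG), the E-box form CAGCTG or a TATA box (TATAAA), searched on both strands, and no match overlaps another in the windows shown. Other forms of the E-box were not searched.
Bcan: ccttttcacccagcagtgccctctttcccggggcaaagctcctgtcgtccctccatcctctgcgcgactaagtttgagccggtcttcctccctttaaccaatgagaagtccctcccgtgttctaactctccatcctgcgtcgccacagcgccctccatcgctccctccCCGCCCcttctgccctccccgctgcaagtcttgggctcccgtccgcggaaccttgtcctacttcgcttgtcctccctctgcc
Ncan: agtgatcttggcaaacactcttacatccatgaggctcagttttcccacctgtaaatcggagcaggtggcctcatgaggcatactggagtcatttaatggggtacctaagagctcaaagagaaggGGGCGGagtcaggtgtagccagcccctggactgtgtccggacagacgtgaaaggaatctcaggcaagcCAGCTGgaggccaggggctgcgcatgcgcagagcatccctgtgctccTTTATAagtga
Vcan: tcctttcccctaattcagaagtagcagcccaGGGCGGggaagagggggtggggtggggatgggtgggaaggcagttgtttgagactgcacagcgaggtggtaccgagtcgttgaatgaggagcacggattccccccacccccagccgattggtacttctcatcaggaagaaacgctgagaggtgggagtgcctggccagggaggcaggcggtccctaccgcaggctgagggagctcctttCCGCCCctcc
Chsy1: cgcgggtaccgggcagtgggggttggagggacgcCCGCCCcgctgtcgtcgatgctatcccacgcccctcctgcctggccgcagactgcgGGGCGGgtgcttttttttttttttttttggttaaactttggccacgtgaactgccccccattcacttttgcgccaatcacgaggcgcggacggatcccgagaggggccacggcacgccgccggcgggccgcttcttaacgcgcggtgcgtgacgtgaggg
A GC box was present in all 4 windows, and 32.7% of 32851 RefSeq promoter windows of the same length held one. The matched windows not shown, of Cspg4, Bgn, Chpf, Chst11 and Chst12, each held a GC box too. Of the windows shown, the E-box form CAGCTG and the TATA box were present only in that of Ncan, against 13% and 12.4% of all windows. Among those not shown, the windows of Bgn and Chst11 also held CAGCTG. The CpG dinucleotide occurred 16 times in the Bcan window, 6 times in Ncan, 10 times in Vcan and 30 times in Chsy1, and the median over all windows was 6. The lecticans thus had no arrangement of these motifs in common beyond the GC box, which every other matched member window also held. These matches describe letters and not bound sites.

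Clone 1 held 11389663 gene counts, clone 2 held 11307034 and the untreated library held 11700755. Levels are CPM, which are counts scaled to the library total by TMM factors, and 3 counts correspond to 0.267 CPM in clone 1, 0.27 in clone 2 and 0.25 in the untreated library. A gene was called when edgeR's quasi-likelihood test gave a Benjamini-Hochberg adjusted p under 0.05 over all 13705 genes tested. By this rule 50.1% of the genes tested were called, 24.3% higher and 25.8% lower in the clones, so a call by itself is common in this comparison. The 5 motor neuron markers with a row summed to 1.89 to 2.4 CPM in the clones and 16.1 CPM in untreated cells. Most of the untreated sum came from Slc18a3, with 3 and 1 counts in clones 1 and 2 and 113 in untreated cells (log2 fold change -5.63, edgeR adjusted p = 2.49e-08), and from Isl1, with 23 and 17 counts in clones 1 and 2 and 72 in untreated cells (-1.74, edgeR adjusted p = 1.82e-04). These were the only 2 tested, and DESeq2 did not call Isl1, with an adjusted p of 0.0534. Chat had no count in either clone and 7 in untreated cells, Lhx3 had none in either clone and 1 in untreated cells, and Mnx1 had 1 and 3 counts in clones 1 and 2 and 1 in untreated cells. Microglia or macrophage markers, 4 in all, summed to 0.449 to 0.713 CPM in the clones and 0.666 CPM in untreated cells. Aif1 had no count in either clone and 2 in untreated cells, and Ptprc had 0 and 2 counts in clones 1 and 2 and 1 in untreated cells. Sympathetic neuroblastoma markers summed to 520.3 to 596 CPM in the clones and 1015 CPM in untreated cells. Most of the sum in the clones came from Hand2 and Phox2a, with log2 fold changes of -0.32 and -0.36. Th had 7.66 and 7.28 CPM in clones 1 and 2 and 112 CPM in untreated cells (-3.91). Dbh had 3 and 6 counts in clones 1 and 2 and 161 in untreated cells (-5.02). All 6 were called lower by edgeR and 5 by DESeq2, which did not call Gata3, with an adjusted p of 0.0537.

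The lecticans were the members that differed most. All 3 were lower in both clones, by 4-fold or more, while 3.98% of all genes tested were called and lower by at least that much. Brevican, neurocan and versican had a summed level of 14.1 and 13.8 CPM in clones 1 and 2, against 122 CPM in untreated cells.

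Bcan encodes brevican, a lectican made mainly in the brain (ENSMUSG00000004892.13, chr3:87987531-88000230, minus strand, GRCm38). It had 15 counts in clone 1 and 22 in clone 2, against 636 in untreated cells. These counts are 1.34 and 1.98 CPM in the clones and 52.9 CPM in untreated cells. Both clones lay far below the untreated library. The log2 fold change was -4.99 ± 0.17 (SE; 2 clones and 1 untreated library; edgeR adjusted p = 1.44e-12), and 0.97% of the genes tested had one as low or lower. From the counts alone the untreated level was 32-fold the clones', with a 95% interval of 22.9 to 45.8 that covers counting error only, as do all intervals given here. The authors' deposited table gives a log2 fold change of -5.01 with a standard error of 0.383, which is larger than the 0.17 here.

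Ncan encodes neurocan, a lectican of developing nervous tissue (ENSMUSG00000002341.8, chr8:70093085-70120873, minus strand). It had 45 and 37 counts in clones 1 and 2, against 370 in untreated cells, or 4.01 and 3.33 CPM in the clones and 30.8 CPM in untreated cells. Here too the clones lay close together and below the untreated library. On the log2 scale the fold change was -3.07 ± 0.17 (edgeR adjusted p = 5.02e-10), and the untreated level was 8.39-fold the clones' with a counting interval of 6.59 to 10.8.

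Vcan encodes versican, the lectican with the widest distribution over tissues (ENSMUSG00000021614.16, chr13:89655312-89742509, minus strand). It had 98 and 95 counts in clones 1 and 2 and 457 in untreated cells. On the CPM scale this is 8.73 and 8.54 in the clones and 38 in untreated cells, so the clones lay close together and both below untreated cells. The log2 fold change was -2.14 ± 0.13 (edgeR adjusted p = 1.62e-09), with an untreated level 4.4-fold that of the clones (3.71 to 5.24). The predicted antisense gene Gm4117 overlaps Vcan without sharing exon bases and had 3 and 6 counts in the clones and 12 in untreated cells, far fewer than Vcan.

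Pan-neuronal markers were lower in the clones together with the lecticans. All 4 that could be tested, of 5 in the list, were called lower by edgeR, which called 25.8% of all genes tested lower. The list summed to 277 to 287 CPM in the clones and 999.7 CPM in untreated cells. Most of this was Tubb3, with 256 and 248 CPM in clones 1 and 2 and 778 CPM in untreated cells (log2 fold change -1.63). The log2 fold changes of Elavl3, Elavl4 and Map2 were -4.04, -3.07 and -2.12. Stmn2 had no count in either clone and 2 counts in untreated cells. The astrocyte markers, of which 3 had a row, summed to 1.34 to 2.43 CPM in the clones and 1.83 CPM in untreated cells. Slc1a3, a glial glutamate transporter, had 0 and 3 counts in clones 1 and 2 and 7 in untreated cells. Gfap, the only 1 tested, was not called (0.81 ± 0.51, edgeR adjusted p = 0.201). The part of these cell markers in the lectican result was not tested. In such bulk libraries fewer cells of a type and less RNA per cell cannot be told apart.

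**Figure D1:**
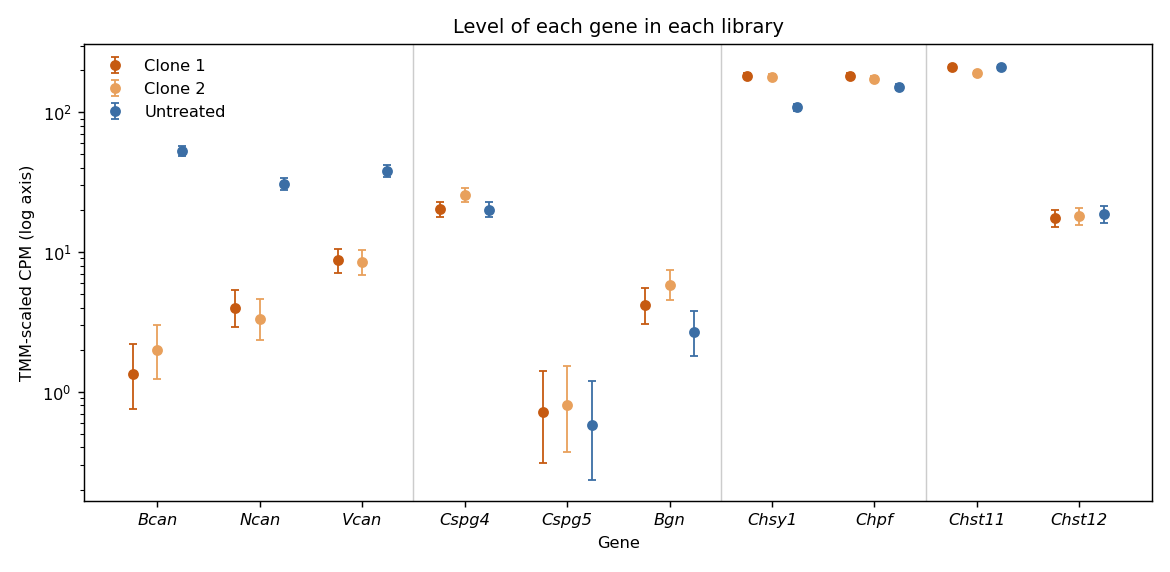
Level of each of the 10 genes in each library, as TMM-scaled CPM on a log axis. Points are single libraries, with the clones left of untreated cells, and bars are 95% counting intervals. Bcan, Ncan and Vcan lie far lower in both clones than in untreated cells, and Chsy1 lies higher.

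Among the other core proteins no fall was called, where edgeR called 25.8% of all genes tested lower. Cspg4 encodes NG2, a membrane-spanning proteoglycan of oligodendrocyte precursors and pericytes (ENSMUSG00000032911.6, chr9:56865033-56899870, plus strand). It had 227 counts in clone 1 and 285 in clone 2, against 242 in untreated cells, or 20.2 and 25.6 CPM in the clones and 20.1 CPM in untreated cells. Clone 1 was at the untreated level and clone 2 was above it. On the log2 scale the clones differed by 0.19 ± 0.14 (edgeR adjusted p = 0.301), and the ratio of the clones to untreated cells was 1.14 with a counting interval of 0.974 to 1.33.

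Bgn encodes biglycan, a small leucine-rich proteoglycan of connective tissue (ENSMUSG00000031375.17, chrX:73483602-73495933, plus strand). It had 47 counts in clone 1 and 65 in clone 2, against 32 in untreated cells, or 4.19 and 5.84 CPM in the clones and 2.66 CPM in untreated cells. Both clones were above the untreated library, by 0.91 ± 0.32 on the log2 scale (edgeR adjusted p = 0.0267), and the call rests on few counts. It was not made by DESeq2, with an adjusted p of 0.347, or by limma-voom, with an adjusted p of 0.0745. In the authors' deposited table its adjusted p is 0.413.

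The summed level of the fibroblast and pericyte markers was also highest in clone 2. The sum over 6 genes was 50 to 74 CPM in the clones and 38 CPM in untreated cells, with no marker at 0 in any library. Rgs5 went the other way, with 0.713 and 0.539 CPM in clones 1 and 2 and 1.75 CPM in untreated cells. Lum had only 3 counts in each clone and 1 in untreated cells and was not tested. Of the 5 tested, edgeR called Col3a1 and Pdgfrb higher in the clones and Rgs5 lower. Of these, DESeq2 and limma-voom called only Pdgfrb, with adjusted p for Col3a1 of 0.0643 and 0.052 and for Rgs5 of 0.463 and 0.0541. Oligodendrocyte precursor markers summed to 43.5 to 46.8 CPM in the clones and 52.2 CPM in untreated cells, nearly all of it from Pdgfra. Pdgfra, the only 1 tested, was called lower by edgeR (log2 fold change -0.23 ± 0.09, adjusted p = 0.0363). It was called by limma-voom and not by DESeq2, with adjusted p of 0.0447 and 0.469. Olig2 had 0 and 4 counts in clones 1 and 2 and 3 in untreated cells. Sox10 had 3 and 8 counts in clones 1 and 2 and 0 in untreated cells. The part of these markers in the Bgn and Cspg4 values was not tested.

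Cspg5 encodes neuroglycan C, a membrane-spanning proteoglycan of neurons (ENSMUSG00000032482.9, chr9:110243783-110262576, plus strand). It had 8 and 9 counts in clones 1 and 2 and 7 in untreated cells, too few to be tested. The ratio of the clones to untreated cells was 1.31 with a counting interval of 0.515 to 3.72. A difference smaller than these bounds was not detectable at this depth.

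**Figure D2:**
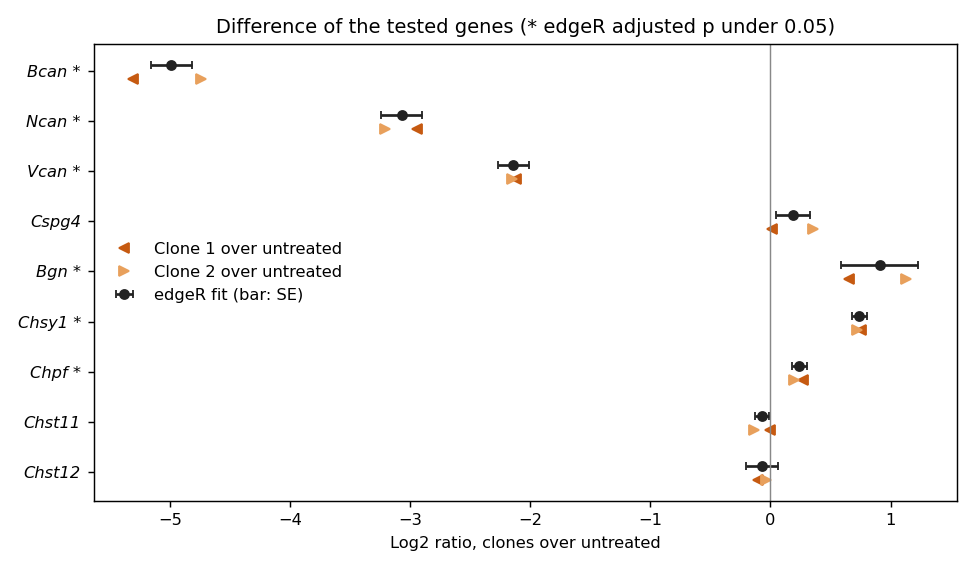
Log2 fold change of the clones over untreated cells for the 9 tested genes. Circles are edgeR's estimates with standard errors as bars, triangles are the ratios of clone 1 and clone 2 to untreated cells, and an asterisk marks an edgeR adjusted p under 0.05. Bcan, Ncan and Vcan lie at -4.99, -3.07 and -2.14, and the other 6 tested genes lie between -0.07 and 0.91.

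The enzymes that make the chain were higher in the clones by small amounts or were not called. Their summed level was 593 CPM in clone 1 and 562 CPM in clone 2, against 489 CPM in untreated cells. Of the 4, edgeR called 2 higher and 0 lower, where it called 24.3% of all genes tested higher and 25.8% lower.

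Chsy1 encodes chondroitin sulfate synthase, which adds the alternating sugars of the chain (ENSMUSG00000032640.10, chr7:66109515-66173798, plus strand). It had 2047 counts in clone 1 and 1997 in clone 2, against 1306 in untreated cells. The clones averaged 181 ± 1.99 CPM (SD, n = 2) and the untreated library had 109 CPM. The clones were nearly equal and both above untreated cells. The log2 fold change was 0.74 ± 0.06 (edgeR adjusted p = 6.26e-08), a ratio of 1.66 with a counting interval of 1.56 to 1.77. Genes of chromosome 7 had a median log2 fold change of 0.259, and with each chromosome's median set to 0 the value for Chsy1 was 0.48 (edgeR adjusted p = 8.01e-06). An antisense gene, Gm26827, shares 148 exon bases with Chsy1 and is not analysed here.

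Chpf encodes the chondroitin polymerising factor, a partner of the synthase (ENSMUSG00000032997.16, chr1:75474569-75479307, minus strand). It had 2049 and 1941 counts in clones 1 and 2 and 1822 in untreated cells. The clones averaged 178 ± 5.68 CPM (SD, n = 2) and the untreated library had 152 CPM. Both clones lay above the untreated library, by less than for Chsy1. The log2 fold change was 0.24 ± 0.06 (edgeR adjusted p = 0.00352). DESeq2 did not call it, with a log2 fold change of 0.23 and an adjusted p of 0.126.

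Chst11 and Chst12 encode sulfotransferases that place sulfate on the N-acetylgalactosamine of the chain. Chst11 (ENSMUSG00000034612.7, chr10:82985498-83195900, plus strand) had 2364 and 2116 counts in clones 1 and 2 and 2525 in untreated cells, or 211 and 190.2 CPM in the clones and 210.1 CPM in untreated cells. The clone 1 level was close to that of untreated cells and the clone 2 level was below both. Its log2 fold change was -0.07 ± 0.06 (edgeR adjusted p = 0.391), and the ratio of the clones to untreated cells was 0.954 with a counting interval of 0.908 to 1.

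Chst12 (ENSMUSG00000036599.10, chr5:140505550-140525724, plus strand) had 195 and 201 counts in clones 1 and 2 and 223 in untreated cells, or 17.4 and 18.1 CPM in the clones and 18.6 CPM in untreated cells. Its log2 fold change was -0.07 ± 0.13 (edgeR adjusted p = 0.706), a ratio of 0.955 (0.808 to 1.13). The libraries lay close together.

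Of the 9 tested genes, edgeR thus called 3 higher and 3 lower, and 3 were not called. DESeq2 called 1 higher, Chsy1, and 3 lower, the lecticans, where it called 22.2% of all genes tested, 11.5% higher and 10.6% lower. The edgeR calls are to be read against the background of 50.1%. The median log2 fold change of the 9 was -0.07, beside 0.00215 over all genes tested.

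To set the core proteins side by side, levels were divided by exon length to give TMM-scaled RPKM, which is CPM per kilobase of exon. Exon length here merges all annotated exons of a gene, so it can exceed the length of the transcript present. Ranks and shares across genes depend on this choice. The 6 core proteins summed to 3.94 RPKM in clone 1 and 4.72 RPKM in clone 2, against 22.1 RPKM in untreated cells. The lecticans made up 37.8% and 32.6% of this sum in clones 1 and 2 and 90.1% in untreated cells. Of these 6, Cspg4 had the highest level in both clones and Bcan had it in untreated cells. Spock2, a core protein of the wider pathway list, was above them, with 7.82 and 8.89 RPKM in clones 1 and 2 and 15.3 RPKM in untreated cells.

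Bcan had 0.329 and 0.487 RPKM in clones 1 and 2 and 13 RPKM in untreated cells, or 8.34% and 10.3% of the sum in the clones and 58.9% in untreated cells. Cspg4 had 1.69 and 2.15 RPKM in clones 1 and 2 and 1.69 RPKM in untreated cells. Its share of the sum was 43% and 45.4% in the clones and 7.63% in untreated cells. The level of Cspg4 in clone 1 was that of untreated cells, so in that clone its larger share goes with the lower sum. In the clones, Bcan, Ncan, Vcan and Bgn lay within 0.329 to 0.958 RPKM, a narrow band compared with untreated cells, where they spanned 0.437 to 13 RPKM.

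Among the enzymes the shares differed less between libraries than among the core proteins. Per length, Chsy1 made up 32% and 33% of their sum in clones 1 and 2 and 23.4% in untreated cells. Chpf made up 34.7% in each clone and 35.4% in untreated cells. Chst11 made up 27.9% and 26.4% in clones 1 and 2 and 34.2% in untreated cells, and Chst12 had the lowest share in all 3 libraries.

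**Figure D3:**
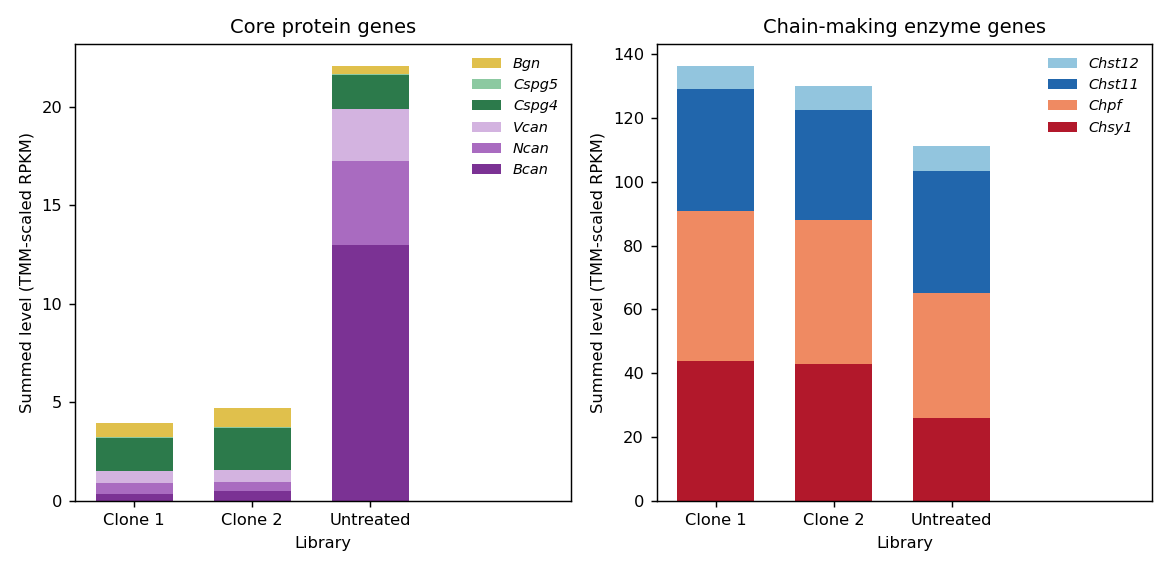
Levels per exon length of the core proteins and of the enzymes, stacked by gene, in TMM-scaled RPKM for clone 1, clone 2 and untreated cells. Bars start at 0. The core protein bar is 3.94 and 4.72 RPKM in the clones and 22.1 RPKM in untreated cells, where Bcan is its largest piece.

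The clones were also compared with each other, with 1 library on each side and so without a test. For 8 of the 10 genes the counting interval of the ratio of clone 2 to clone 1 held 1. The exceptions were Cspg4, at 1.27 (1.06 to 1.52), and Chst11, at 0.903 (0.851 to 0.958). Over all genes tested, 11.5% had an interval that left out 1. Bcan had a ratio of 1.48 (0.734 to 3.07), Ncan 0.83 (0.522 to 1.31) and Vcan 0.978 (0.73 to 1.31), so the clones' lectican levels could not be told apart at this depth. The ratio was 0.985 (0.925 to 1.05) for Chsy1.

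Further genes of the chondroitin sulfate pathway were read from a list of 69, of which 64 had a row and 47 were tested. Of these, 8 were called higher in the clones, 12 lower and 27 not called, with a median log2 fold change of -0.06. DESeq2 called 3 higher and 7 lower. Over all genes tested, edgeR called 24.3% higher and 25.8% lower, and DESeq2 called 11.5% higher and 10.6% lower. The counts of pathway genes were not tested against these shares.

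Among other core proteins, 2 of 4 tested were called lower. Spock2, which encodes the proteoglycan testican-2, had 43.3 and 49.2 CPM in clones 1 and 2 and 84.4 CPM in untreated cells (log2 fold change -0.87 ± 0.08, edgeR adjusted p = 3.38e-07). Ptprz1, a receptor-type phosphatase that is also made as the proteoglycan phosphacan, had 7 counts in each clone and 20 in untreated cells (-1.39 ± 0.51, edgeR adjusted p = 0.0322). DESeq2 did not call it, with an adjusted p of 0.497. Both lie in the direction of the lecticans and by less. The small proteoglycan gene Dcn (0.46 ± 0.62) and the hyaluronan receptor gene Cd44 (-0.16 ± 0.14) were not called.

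Of 5 tested hyaluronan synthases and matrix partners, 1 was called. Tnr, which encodes tenascin-R, a ligand of the lecticans, had 1 count in each clone and 28 in untreated cells. Its log2 fold change was -4.54 ± 0.65 (edgeR adjusted p = 1.85e-05), and the ratio of the clones to untreated cells was 0.0384 with a counting interval of 0.00443 to 0.152.

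Linker synthesis, the first step of the chain, had 1 gene higher, 1 lower and 5 not called. Xylt2, a xylosyltransferase that starts the linker, had 28.3 and 29.3 CPM in clones 1 and 2 and 19.1 CPM in untreated cells (log2 fold change 0.59 ± 0.12, edgeR adjusted p = 5.88e-04). B3gat3, which adds the last sugar of the linker, had 66.3 and 66.4 CPM in clones 1 and 2 and 84.7 CPM in untreated cells (-0.35 ± 0.07, edgeR adjusted p = 5.79e-04). Neither was called by DESeq2, with adjusted p of 0.0793 and 0.0866. The step thus had calls in both directions.

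In polymerisation, Chpf2, a relative of Chpf, had 1351 and 1259 counts in clones 1 and 2 and 1206 in untreated cells. Its log2 fold change was 0.22 ± 0.07 (edgeR adjusted p = 0.012), and DESeq2 did not call it, with an adjusted p of 0.266. It thus lay in the direction of Chsy1 and Chpf in both clones. Csgalnact2, which adds the first N-acetylgalactosamine of a chain, was not called (-0.10 ± 0.13). In sulfation and epimerisation, 1 of 4 tested was called. Chst15, a sulfotransferase for doubly sulfated units, had 9 and 10 counts in clones 1 and 2 and 25 in untreated cells (-1.28 ± 0.44, edgeR adjusted p = 0.0245). DESeq2 did not call it, with an adjusted p of 0.473. Chst3 (0.74 ± 0.56), Chst14 (0.01 ± 0.23) and the epimerase gene Dse (0.02 ± 0.12) were not called.

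The supply of sulfate and sugar precursors had 2 genes higher, 1 lower and 5 not called. Slc26a2, a sulfate transporter of the cell surface, had 49.2 and 48.9 CPM in clones 1 and 2 and 23.1 CPM in untreated cells. Its log2 fold change was 1.08 ± 0.10 (edgeR adjusted p = 1.88e-07), and it was 0.67 with chromosome medians set to 0, since genes of its chromosome had a median of 0.415. The clones had about the same level, well above untreated cells. Slc35b2, a transporter of the activated sulfate donor into the Golgi, had 1819 and 1737 counts in clones 1 and 2 and 1560 in untreated cells (0.29 ± 0.06, edgeR adjusted p = 7.59e-04). With chromosome medians set to 0 its log2 fold change was 0.17, and DESeq2 did not call it, with an adjusted p of 0.0543.

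Papss1 and Papss2 encode the enzymes that make the sulfate donor. Papss2 had 1 and 5 counts in clones 1 and 2 and 48 in untreated cells (log2 fold change -3.84 ± 0.52, edgeR adjusted p = 1.42e-05). The ratio of the clones to untreated cells was 0.0672 with a counting interval of 0.0235 to 0.157. On the log2 scale the value was -3.12 without clone 1 and -5.33 without clone 2. The ratio of clone 2 to clone 1 was 5.05 with a counting interval of 0.565 to 239. This interval holds 1, so the clones' Papss2 levels could not be told apart. Papss1, named after its values were seen, had 90 and 93.4 CPM in clones 1 and 2 and 92 CPM in untreated cells (-0.01 ± 0.07). In untreated cells Papss2 had 3.99 CPM, so the lower level of Papss2 stood beside a level of Papss1 that was not called as different.

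Lysosomal breakdown had 3 genes higher, 3 lower and 4 not called. The sulfatases were called in both directions, with Galns and Arsb higher and Ids lower. Galns had 86 and 73.9 CPM in clones 1 and 2 and 49.3 CPM in untreated cells (log2 fold change 0.70 ± 0.09, edgeR adjusted p = 1.08e-05). Arsb had 68.9 and 72.5 CPM in clones 1 and 2 and 51.6 CPM in untreated cells (0.45 ± 0.08, edgeR adjusted p = 1.59e-04). Gusb, a glucuronidase, was lower, with 79.1 and 79.4 CPM in clones 1 and 2 and 128 CPM in untreated cells (-0.70 ± 0.06, edgeR adjusted p = 2.06e-07). Sumf1, which activates sulfatases, had 38.9 and 38.5 CPM in clones 1 and 2 and 56.3 CPM in untreated cells (-0.54 ± 0.08, edgeR adjusted p = 5.91e-05). Ids, the iduronate sulfatase, named after its values were seen, had 28.7 and 30.5 CPM in clones 1 and 2 and 37.7 CPM in untreated cells (-0.35 ± 0.10, edgeR adjusted p = 0.00813). It was not called by DESeq2, with an adjusted p of 0.298, or with chromosome medians set to 0, where it was at -0.13. A further 1 gene of this step was called higher, so the step did not move one way.

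Of the proteases that cut lecticans, Adamts4 was called and Adamts1 (0.01 ± 0.47) and Adamts9 (0.28 ± 0.14) were not. Adamts4, an aggrecanase that also cuts brevican, had 27.3 and 27.9 CPM in clones 1 and 2 and 60 CPM in untreated cells (log2 fold change -1.12 ± 0.09, edgeR adjusted p = 4.15e-08). It was lower in both clones together with Bcan.

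All 4 receptor genes for the chains were tested. Rtn4r, which encodes the Nogo receptor, had 44 and 33 counts in clones 1 and 2 and 217 in untreated cells, or 3.92 and 2.97 CPM in the clones and 18.1 CPM in untreated cells (log2 fold change -2.39 ± 0.20, edgeR adjusted p = 9.2e-08). Its relative Rtn4rl1 had 20.8 and 16.8 CPM in clones 1 and 2 and 26.5 CPM in untreated cells (-0.49 ± 0.13, edgeR adjusted p = 0.00597). DESeq2 did not call Rtn4rl1, with an adjusted p of 0.222. Both were thus lower in both clones, Rtn4r by far more. Ptprs, a receptor phosphatase, had 138 and 135 CPM in clones 1 and 2 and 122 CPM in untreated cells (0.17 ± 0.06, edgeR adjusted p = 0.032). Its call was lost with DESeq2 and with chromosome medians set to 0, where the log2 fold change was 0.05. Ptprf was not called (0.02 ± 0.06).

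**Figure D4:**
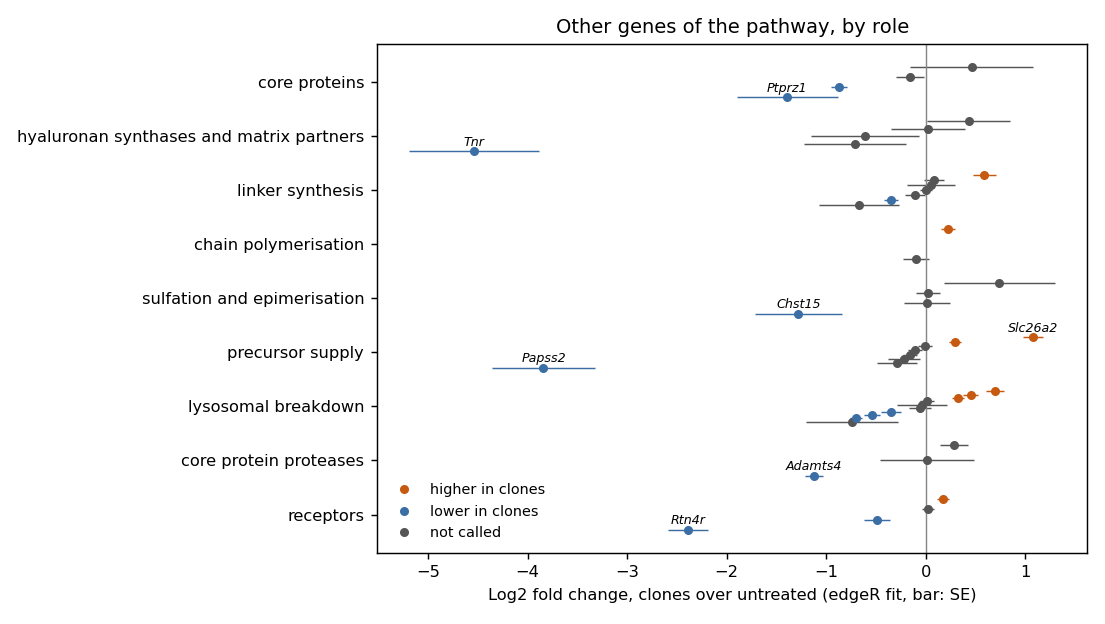
Log2 fold change of the clones over untreated cells for the tested pathway genes, grouped by step. Each point is 1 gene, bars are standard errors, and colour marks genes called higher or lower by edgeR. Most points lie near 0, and Tnr, Papss2 and Rtn4r lie lowest, at -4.54, -3.84 and -2.39.

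The genome places lectican genes beside genes of link proteins, which tie lecticans to hyaluronan. In the Gencode M21 annotation the gap is 21520 bases between Bcan and Hapln2, 2223 bases between Ncan and Hapln4 and 43660 bases between Vcan and Hapln1. Hapln2 had 2 counts in each clone and 6 in untreated cells and was not tested. Hapln4 had 11 and 6 counts in clones 1 and 2 and 14 in untreated cells (log2 fold change -0.61 ± 0.54, edgeR adjusted p = 0.371). Hapln1 is not analysed here. The ratio of the clones to untreated cells was 0.653 for Hapln4, with a counting interval of 0.303 to 1.43, and 0.119 for Ncan, with one of 0.0926 to 0.152. These intervals do not overlap, and the difference between the neighbours was not tested.

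The nearest tested neighbours were chosen by position and named after their values were seen. Nes, which encodes the intermediate filament protein nestin and lies 7080 bases from Bcan, had 125 CPM in each clone and 104 CPM in untreated cells (0.27 on the log2 scale, edgeR adjusted p = 0.0021). On the other side of Bcan the predicted gene Gm19439 had 0.445 and 0.27 CPM in clones 1 and 2 and 1.58 CPM in untreated cells (-2.11 ± 0.57, edgeR adjusted p = 0.00605). The genes on either side of Bcan were thus called in opposite directions. Beside Ncan, opposite Hapln4, Rfxank had a log2 fold change of -0.04. Beside Vcan, Xrcc4 had -0.38 (edgeR adjusted p = 0.215) and Cox7c, far away on the other side, had 0.10. Neither neighbour of Ncan or of Vcan was called. Beside Bgn, Atp2b3, a calcium pump 7153 bases away, had 9.17 and 9.53 CPM in clones 1 and 2 and 2.33 CPM in untreated cells (edgeR adjusted p = 1.33e-05), in the direction of Bgn. Haus7, on the other side of Bgn, was also called higher (0.34, edgeR adjusted p = 0.00334). Chpf lies 226 bases from Asic4, at -1.91 (edgeR adjusted p = 1.1e-04), and 3 bases from Obsl1, at 0.54 (edgeR adjusted p = 2.28e-05), so its neighbours were called in opposite directions. So were those of Chsy1, with Selenos at -0.26 and Lrrk1 at 0.50. The neighbours of Cspg4, Lingo1 (0.56) and Snx33 (0.36), were called higher, as were those of Cspg5, Smarcc1 (0.16) and Mir6236 (1.34). No neighbour of Chst11 or Chst12 was called. Of all genes tested, 50.1% were called, so a call beside a member is common.

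**Figure D5:**
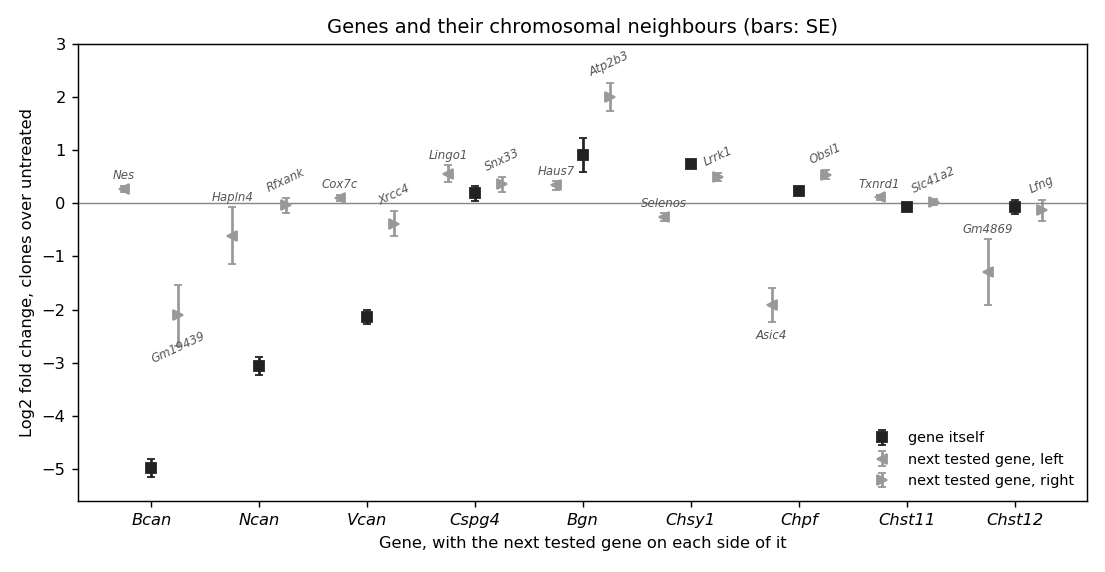
Log2 fold change of the clones over untreated cells for each tested member (squares) and the next tested gene on each side of it (triangles), with standard errors as bars. Bcan lies at -4.99 between Nes at 0.27 and Gm19439 at -2.11, and Vcan lies at -2.14 beside Xrcc4 at -0.38.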

How the data were processed

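Polyadenylated RNA was made into stranded libraries, per the labels' protocols. Raw counts are whole reads per gene that the authors made with the gene counting option of STAR on Gencode M16 and GRCm38, per the file headers. Whether counting used the strand is not stated, so antisense partners cannot be told apart. The deposited RPM values are the counts scaled to the total of the listed genes: 68928 of 68928 matched within 0.06, and they were used for nothing else. The authors' deposited table of log2 fold changes and p-values is a DESeq2 result, per the file headers. The submitters' processing notes name STAR 2.5.3.

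Groups follow the treatment label, since the protocol field gives PR20 for the untreated library too. Counts were filtered with filterByExpr and tested in R 4.3.3 with edgeR 4.0.16 (TMM factors, two-sided quasi-likelihood F test with the legacy option off, Benjamini-Hochberg adjustment over 13705 genes). Only the clones inform the spread, with 1 residual degree of freedom. Standard errors are the log2 fold change over the square root of F, which only approximates a standard error. Where few counts go with a large difference, as for Bcan, Tnr and Papss2, it can be smaller than counting error alone. The counting intervals printed for these genes do not depend on it. Alternatives were DESeq2 1.42.0, limma-voom 3.58.1, the legacy fit, RLE size factors, other filters, chromosome medians set to 0, and each clone left out. The scripts were tested on simulated data. Intervals are exact at 95% and cover counting error only, as PCR copies are not marked by molecular identifiers. Positions, lengths and distances were read from Gencode M21 (GRCm38), where 13692 of the tested genes were found.

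All 10 members are described. Of each pathway step the called genes are named, up to 4 by lowest p, and uncalled genes where a step had at most 4 tested genes. The members and lists were chosen with earlier results of these data known. Listed genes without a row are not analysed here.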

Additional observations from a re-analysis of the deposited data

How the results depend on the processing

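With 1 untreated library, no spread of untreated cells could be measured, and genes with as few counts as Cspg5 allow only wide intervals. The 3 lecticans were called lower under every test with a low-count filter (edgeR and its legacy fit, DESeq2, limma-voom, RLE size factors, a mean CPM of at least 1, and chromosome medians set to 0).

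The number of all genes called higher in the clones was 3332, and 1578 with DESeq2; the number lower was 3533, and 1459 with DESeq2. With DESeq2, 1 member was called higher, Chsy1, and of the pathway genes 3 were called higher and 7 lower. Without a low-count filter edgeR called 0 genes higher and 4 lower among 22976, with the lowest adjusted p at 0.032, while 7086 genes had an unadjusted p under 0.05. With no filter and the legacy fit, an alternative chosen after seeing the data, edgeR called 0 genes in either direction. Under both of these settings 0 members and 0 pathway genes were called in either direction, and 5 members had an unadjusted p under 0.05 without the filter. The cause was not tested.

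The median log2 fold change of all genes was 0.00 with limma-voom and 0.03 without a filter under either fit. That of the members, -0.07, was 0.07 without a filter under either fit and 0.01 with chromosome medians set to 0. Leaving out each clone in turn gave values without a test, with 0 residual degrees of freedom: the medians ranged from -0.01 to 0.00 for all genes, from -0.04 to 0.00 for the members and from -0.14 to -0.09 for the pathway genes. With a clone left out, Chst11 was at 0.00 without clone 2 and -0.14 without clone 1, and the other 8 tested members kept their direction. The uncalled Tnc, at 0.43 with both clones, was at -0.24 without clone 2 and 0.89 without clone 1. Among uncalled genes the sign turned for Chst11 and Chst12 (0.01 each), Chst14 (-0.01) and Idua (0.04) with chromosome medians set to 0, for Fam20b, Chst14 and Adamts1 (-0.01 each) with a mean CPM of at least 1, and for Papss1 (0.00) without a filter under either fit. No paired analysis was possible, since there is 1 untreated library and the labels pair it with neither clone.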
